A study of Mus musculus with 8 samples.

Results

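The 10 heat shock chaperone genes Hspa1a, Hspa1b, Hspa8, Hsp90aa1, Hsp90ab1, Hsph1, Dnajb1, Hspb1, Hspd1 and Hspe1 were followed in CD11b+ cells from the brains of postnatal mice, chosen as all non-control probes whose gene name in the scanner output was one of these symbols. They were carried by 20 of 56599 usable probes and made up 10 of 36589 gene names on the array. Cells that carry the myeloid integrin CD11b (microglia and other myeloid cells) were taken with magnetic beads from male C57BL/6N mice at 7 days of age. The mice had received lipopolysaccharide (LPS, the endotoxin in the wall of Gram-negative bacteria) or saline 24 h earlier. Each group had 4 tubes, each tube pooled the brains of 2 mice, and each tube's RNA went to 1 array with a single dye. The labels give neither the dose nor the route of injection. A p-value here measures the spread between tubes of pooled animals, and the number of arrays limits its precision.

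Heat shock proteins are chaperones: they bind unfolded or partly folded proteins, keep them from aggregating, and pass them on for folding or degradation. HSP70 proteins work in cycles with J-domain proteins that deliver clients and with exchange factors that release them, and HSP90 proteins finish the folding of kinases and steroid receptors with the help of co-chaperones. Heat shock factor 1 (HSF1) drives the inducible members by binding repeats of the letters GAA in alternating orientation, the heat shock element, while other members are made in unstressed cells as well. Of the 10 genes, 8 code for proteins of the cytosol and nucleus, and Hspd1 and Hspe1 code for the chaperonin pair of the mitochondrial matrix.

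After LPS the 10 genes split into 2 directions. The constitutive HSP70 Hspa8, both HSP90 genes, the HSP110 gene Hsph1 and the mitochondrial pair were higher, while the stress-inducible HSP70 genes Hspa1a and Hspa1b and the small heat shock protein gene Hspb1 were lower. Changes are given as log2 LPS minus saline of the scaled signal, which is the log2 of the background-subtracted intensity minus the 75th percentile of its array, ± the standard error from limma with n = 4 arrays per group. All 10 genes could be tested, 6 passed an adjusted p threshold of 0.05 upward, 3 downward, and Dnajb1 did not pass. Over all 22509 genes tested 49.3% passed, 27.8% upward and 21.5% downward. The changes of the members ran between -1.21 (Hspb1) and 1.04 (Hspd1), with a median of 0.39 against 0.02 over all genes tested. The LPS arrays lay wholly above the saline arrays for 5 members and wholly below them for 2, where these shares were 25.8% and 18.9% of all genes tested (44.7% with no overlap in either direction).

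**Figure D1:**
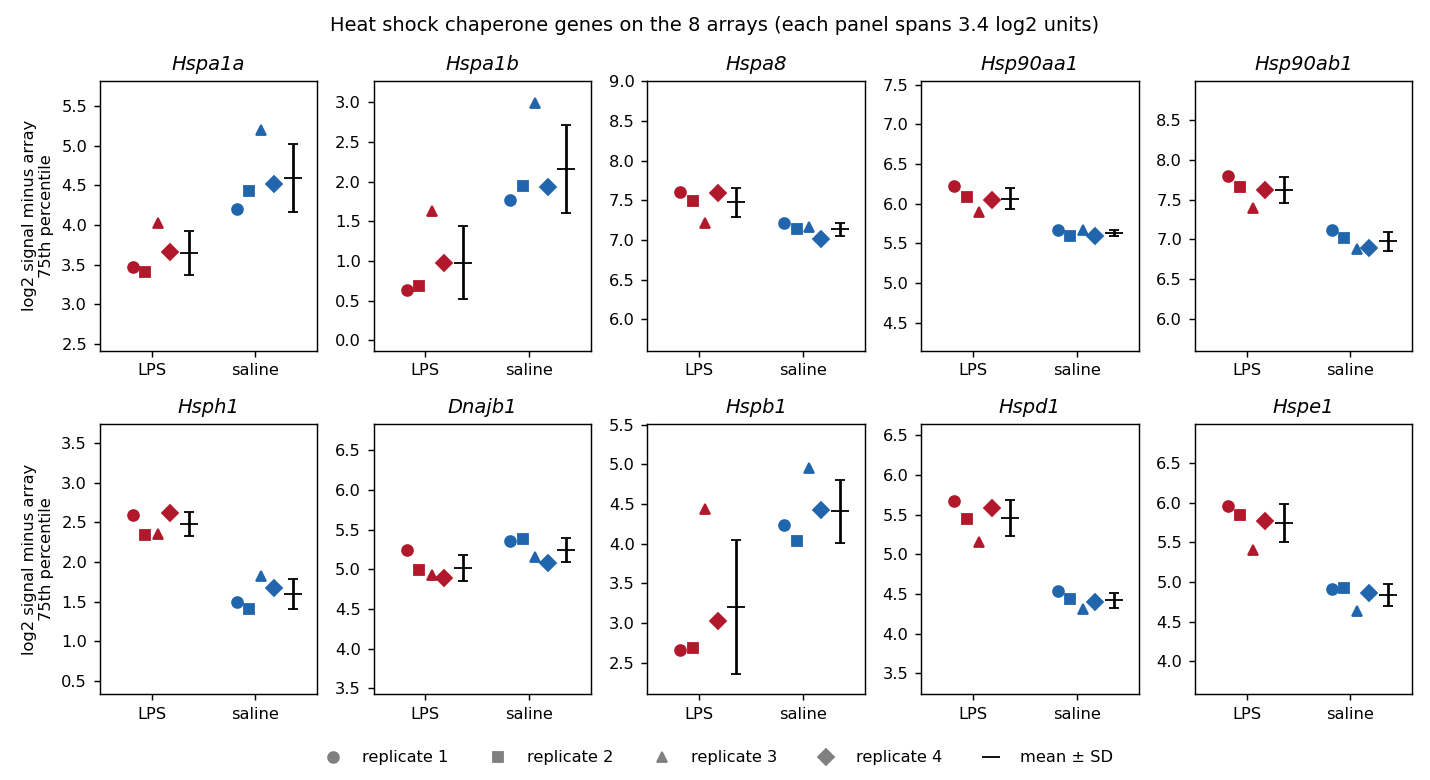
Scaled log2 signal (log2 signal minus the array's 75th percentile) of the 10 chaperone genes on each array, LPS left in red and saline right in blue, with marker shapes for the replicate and bars for mean ± SD (n = 4 per group). Hspa1a, Hspa1b and Hspb1 are lower on the LPS arrays with the triangle of replicate 3 on top in both groups, and Hspd1, Hspe1, Hsp90ab1, Hsph1 and Hsp90aa1 have every LPS point above every saline point.

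The inducible HSP70 genes fell. Hspa1a and Hspa1b are neighbouring, nearly identical copies on mouse chromosome 17 that code for the HSP70 made in large amounts after heat or proteotoxic stress. On the LPS arrays Hspa1a had scaled log2 signals of 3.47, 3.41, 4.02 and 3.66 in replicates 1 to 4, against 4.20, 4.43, 5.20 and 4.51 on the saline arrays. Every LPS value was below every saline value, and replicate 3 was the highest of each group. The replicate numbers only name the arrays in the order of deposit, since the labels give none, and the 2 arrays numbered 3 shared slide column 3. Its mean was 3.64 ± 0.28 after LPS and 4.59 ± 0.43 after saline (SD, n = 4 each), a change of -0.95 ± 0.23 with a 95% confidence interval of -1.46 to -0.43, or 0.519 times the saline level (adjusted p = 0.00999).

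Hspa1b behaved alike at the level of single arrays. Its values were 0.63, 0.68, 1.63 and 0.98 in LPS replicates 1 to 4, against 1.77, 1.95, 2.99 and 1.94 in saline replicates 1 to 4. The groups did not overlap here either, and replicate 3 was again the highest of each group. The background-subtracted intensity behind these values was 239 to 555 on the LPS arrays and 574 to 1602 on the saline arrays. The mean was 0.98 ± 0.46 after LPS and 2.16 ± 0.56 after saline (SD, n = 4 each), and the change was -1.18 ± 0.31 (95% confidence interval -1.90 to -0.46), or 0.442 times the saline level (adjusted p = 0.0157).

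Each of the 2 copies was read by a single probe near the 3′ end of its transcript. The Hspa1a probe lies at chr17:35106766-35106825 and the Hspa1b probe at chr17:35093374-35093405 (mm9, minus strand, as the file annotates them). Their first 30 bases are shown because each copy rests on its 1 probe.
Hspa1a probe: agggaaactaaactgtctttcagttacttt
Hspa1b probe: taatctaagtaggttaaagatggtgtagtc
The 60-base probes share no run of more than 5 bases on either strand. They target different stretches, from base 2276 of the Hspa1a transcript and base 2664 of the Hspa1b transcript. The lack of a shared run therefore does not show that each probe reads 1 copy alone. The annotated interval of the Hspa1b probe covers 32 bases. Whether either probe also binds RNA of the other copy was not tested. Within an array the difference Hspa1b minus Hspa1a was -2.66 ± 0.19 log2 units after LPS and -2.43 ± 0.15 after saline (SD, n = 4 each), an offset that includes the probes' own brightness, so that only its shift of -0.23 between the groups carries information.

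The sequences before the start sites of the 2 copies are shown because the genes moved together and their upstream regions are almost the same. Each run gives the 250 bases before the RefSeq start in GRCm38.p6, Hspa1a at chr17:34972157-34972406 and Hspa1b at chr17:34959239-34959488, both 5′ to 3′ on the minus strand, with capitals for the heat shock element letters GAANNTTC.
Hspa1a: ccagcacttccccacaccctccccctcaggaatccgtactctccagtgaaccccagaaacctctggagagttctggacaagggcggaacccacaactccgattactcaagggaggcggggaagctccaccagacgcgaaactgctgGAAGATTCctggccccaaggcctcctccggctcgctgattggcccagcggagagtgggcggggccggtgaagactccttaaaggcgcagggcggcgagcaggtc
Hspa1b: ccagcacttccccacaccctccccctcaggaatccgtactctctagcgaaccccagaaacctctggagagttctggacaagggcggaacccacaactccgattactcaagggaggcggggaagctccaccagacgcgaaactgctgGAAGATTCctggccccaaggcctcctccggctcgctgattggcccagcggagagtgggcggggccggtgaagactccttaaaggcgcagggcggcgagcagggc
Over the 300-base windows of the RefSeq table, which add 50 bases after the start, the copies differed at 4 positions, written with the Hspa1a base first and counted from 1 at the 5′ end: C44T, T47C, T249G and C276T. None of these lay in the element, whose first base was 104 bases before the start in both copies. Each window also held ATTGG, the reverse strand of the CCAAT box, 67 bases before the start. GAANNTTC occurred in 7.86% of all 32851 windows, TTCNNGAA in 8.52%, at least one of both in 15.1%, and CCAAT in either orientation in 37.4%. A match to these letters is a description of the window and not a bound site.

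Hspb1, which codes for the small heat shock protein HSP25 of the mouse (HSP27 in humans), an ATP-independent holder of unfolded proteins that also binds the cytoskeleton, was lower. Its scaled log2 signals were 2.66, 2.68, 4.44 and 3.02 in LPS replicates 1 to 4, against 4.23, 4.03, 4.96 and 4.42 in saline replicates 1 to 4. LPS replicate 3 lay within the saline range and the other LPS replicates lay below it, so the groups overlapped. The mean was 3.20 ± 0.84 after LPS and 4.41 ± 0.40 after saline (SD, n = 4 each). The change was -1.21 ± 0.40 (95% confidence interval -2.14 to -0.28), or 0.432 times the saline level, with an adjusted p of 0.0369.
The window before Hspb1 held GAANNTTC at 2 places, 117 and 97 bases before the start, and the 30 bases at chr5:135887801-135887830 (GRCm38.p6, plus strand) that hold both are shown with the elements in capitals.
Hspb1: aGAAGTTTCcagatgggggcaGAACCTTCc

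The 3 genes that were lower also followed the brightness of the arrays. Replicate 3 had the brightest array of its group, with a median background-subtracted signal of 17.3 against 11.7 to 13.8 on the other LPS arrays, and of 21.5 against 15.5 to 18.2 on the other saline arrays. With array median signal added to the limma model as a covariate, Hspa1a changed by -0.44 (adjusted p = 0.0623), Hspa1b by -0.45 (adjusted p = 0.104) and Hspb1 by -0.27 (adjusted p = 0.42), so that none of these passed. Under the same covariate Hspa8 also lost its upward call (0.19, adjusted p = 0.213). The changes of Hsp90aa1 (0.34), Hsp90ab1 (0.44), Hspd1 (0.81) and Hspe1 (0.62) were smaller and still passed. Hsph1 was at 0.95 and passed. Brightness and treatment were not independent, since the 3 dimmest arrays were all from LPS tubes. Without LPS replicate 3 the changes were -1.07 for Hspa1a, -1.40 for Hspa1b and -1.62 for Hspb1, and without saline replicate 3 they were -0.74, -0.90 and -1.03, the last of which did not pass (adjusted p = 0.0965).

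**Figure D2:**
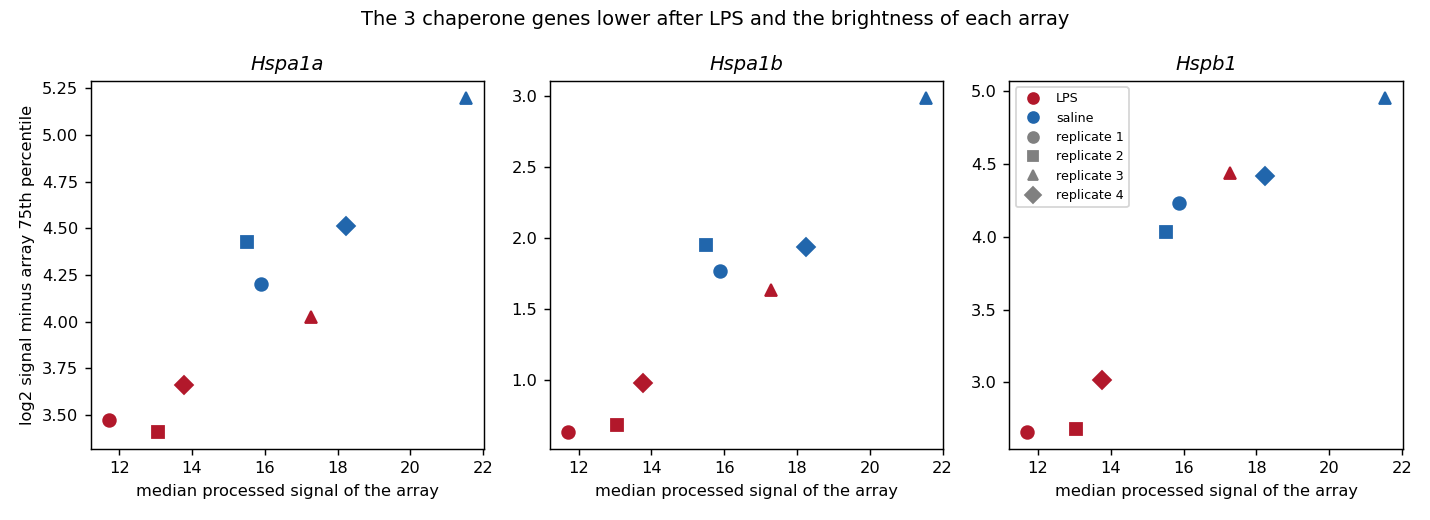
Scaled log2 signal of Hspa1a, Hspa1b and Hspb1 on the vertical axis against the median processed signal of the array on the horizontal axis, with 1 point per array, LPS in red and saline in blue. In each panel the brightest array of each group, replicate 3, is also the highest of its group, and the 3 dimmest arrays (11.7, 13.1 and 13.8) are LPS arrays.

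The constitutive HSP70 Hspa8 (HSC70), which folds new proteins and uncoats clathrin vesicles, was higher by a small amount. Its values were 7.61, 7.49, 7.21 and 7.59 in LPS replicates 1 to 4, against 7.22, 7.14, 7.16 and 7.01 in saline replicates 1 to 4. LPS replicate 3 fell within the saline range, and the other 3 LPS arrays were above it. The mean was 7.48 ± 0.18 after LPS and 7.13 ± 0.09 after saline (SD, n = 4 each), a change of 0.34 ± 0.10, or 1.27 times the saline level (adjusted p = 0.0266). The 3 other Hspa8 probes, spread along the transcript, gave 0.32 ± 0.10, 0.38 ± 0.08 and 0.40 ± 0.08, each with its LPS arrays all above its saline arrays and each past the threshold over all 35494 probes tested (highest adjusted p = 0.0303). The call of the gene was lost under 9 of 23 alternative settings, among them quantile normalization (0.02, adjusted p = 0.821).

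Hsph1, an HSP110 protein that exchanges nucleotide on HSP70 and works with it in breaking up aggregates, was clearly higher. Its values were 2.60, 2.33, 2.35 and 2.62 in LPS replicates 1 to 4, against 1.49, 1.40, 1.83 and 1.67 in saline replicates 1 to 4. Every LPS array was above every saline array, with a gap between 1.83 and 2.33. The change was 0.88 ± 0.12 (95% confidence interval 0.61 to 1.15), or 1.84 times the saline level (adjusted p = 0.00115). Its 2 other probes gave 0.61 ± 0.13 and 0.50 ± 0.13 (adjusted p = 0.00592 and 0.0152), the smaller of them from a probe for another transcript variant with an intensity of 12.2 to 14.2 after LPS and 8.43 to 14.4 after saline.
The 30 bases at chr5:149636351-149636380 (GRCm38.p6, minus strand) are shown because they hold the element TTCNNGAA, in capitals, whose first base lies 33 bases before the first of 2 RefSeq starts.
Hsph1: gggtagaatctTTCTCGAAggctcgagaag
A longer match of 3 units, TTCTGGAAAGTTC, lay behind this start. Such runs of 3 alternating units (GAANNTTC continued by NNGAA, on either strand) occurred in 0.603% of all windows.

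Dnajb1, the HSP40 that hands clients to HSP70 and is itself induced by heat, did not pass. Its values were 5.25, 4.99, 4.93 and 4.89 in LPS replicates 1 to 4, against 5.36, 5.38, 5.16 and 5.08 in saline replicates 1 to 4. The groups overlapped in LPS replicate 1, and the other LPS arrays were below all saline arrays. The mean was 5.01 ± 0.16 after LPS and 5.24 ± 0.15 after saline (SD, n = 4 each), a difference of -0.23 ± 0.11 with a 95% confidence interval of -0.48 to 0.02 (adjusted p = 0.113). With slide column as a block, which pairs each LPS array with 1 saline array, the same difference passed (adjusted p = 0.032). Neither of the 2 Dnajb1 windows in the RefSeq table held GAANNTTC or TTCNNGAA.

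Both HSP90 genes were higher. Hsp90ab1, the constitutive HSP90 beta, had values of 7.79, 7.66, 7.40 and 7.62 in LPS replicates 1 to 4, against 7.12, 7.02, 6.87 and 6.89 in saline replicates 1 to 4. The groups stood apart. The change was 0.64 ± 0.10 (95% confidence interval 0.40 to 0.88), or 1.56 times the saline level (adjusted p = 0.00203).
Hsp90aa1, the stress-inducible HSP90 alpha, had values of 6.23, 6.08, 5.90 and 6.04 in LPS replicates 1 to 4, against 5.67, 5.59, 5.66 and 5.60 in saline replicates 1 to 4. Every LPS array was above every saline array, and the saline arrays differed by little (SD 0.04, against 0.13 after LPS). The change was 0.43 ± 0.08 (95% confidence interval 0.24 to 0.62), or 1.35 times the saline level (adjusted p = 0.00406), and a second probe gave 0.55 ± 0.10 (adjusted p = 0.00321). Another Hsp90aa1 probe, designed to an expressed sequence tag, was not well above background on any array and was not tested. The intervals of the 2 genes overlap, and the difference between their changes was not tested.

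The mitochondrial pair was higher. Hspd1 codes for HSP60, the barrel in which matrix proteins fold, and Hspe1 for HSP10, the lid of that barrel. Hspd1 had values of 5.67, 5.45, 5.15 and 5.58 in LPS replicates 1 to 4, against 4.53, 4.43, 4.31 and 4.40 in saline replicates 1 to 4. The lowest LPS array was 5.15 and the highest saline array 4.53, so the groups stood well apart. The mean was 5.46 ± 0.23 after LPS and 4.42 ± 0.09 after saline (SD, n = 4 each), a change of 1.04 ± 0.12 (95% confidence interval 0.77 to 1.32), or 2.06 times the saline level (adjusted p = 0.00072).
Hspe1 had values of 5.95, 5.84, 5.40 and 5.76 in LPS replicates 1 to 4, against 4.92, 4.93, 4.64 and 4.87 in saline replicates 1 to 4. All LPS arrays were again above all saline arrays, and replicate 3 was the lowest of each group for both genes. The change of Hspe1 was 0.90 ± 0.13 (95% confidence interval 0.60 to 1.20), or 1.87 times the saline level (adjusted p = 0.00137). The second Hspd1 probe gave 0.98 ± 0.14 (adjusted p = 0.00133), and the 2 other Hspe1 probes gave 0.92 ± 0.15 (adjusted p = 0.00234) and 0.95 ± 0.14 (adjusted p = 0.00164). The difference Hspd1 minus Hspe1 within an array was -0.28 ± 0.09 after LPS and -0.42 ± 0.08 after saline (SD, n = 4 each), a shift of 0.14 between the groups.

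The 2 genes lie head to head on mouse chromosome 1 and one of the 2 RefSeq starts of Hspd1 shares an upstream region with Hspe1. The 215 bases between these starts, chr1:55087933-55088147 (GRCm38.p6, plus strand, read towards Hspe1), are shown because the genes rose together, with capitals for a run of overlapping heat shock element units.
Hspd1-Hspe1: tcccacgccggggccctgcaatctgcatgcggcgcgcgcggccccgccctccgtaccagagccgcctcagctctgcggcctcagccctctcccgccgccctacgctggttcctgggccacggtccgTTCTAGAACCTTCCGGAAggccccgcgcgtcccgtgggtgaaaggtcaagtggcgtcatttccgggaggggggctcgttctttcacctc
The run held both three-unit matches, TTCTAGAACCTTC and GAACCTTCCGGAA, which overlap each other, and its first base lay 89 bases before the start of Hspe1. Of the 10 genes, 7 had a window in the RefSeq table, 10 windows in all. A two-unit element was held by 6 of the 7 genes, Dnajb1 being the exception, where 15.1% of all windows held one. In Hspd1 only the window that shares its run with Hspe1 held such an element, and the windows of Hspa1a and Hspa1b are nearly identical. Such letters stood before genes that were higher (Hsph1, Hspd1, Hspe1) and genes that were lower (Hspa1a, Hspa1b, Hspb1).

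Probes of the same gene went the same way. Of 20 probes 19 could be tested, of which 15 were higher, 3 were lower and the Dnajb1 probe did not pass, where 25.7% of all probes tested were higher and 21.8% lower (47.5% together). The 3 genes that were lower and Dnajb1 rest on 1 probe each, while 5 of the 6 genes that were higher were read by 2 to 4 tested probes.

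**Figure D3:**
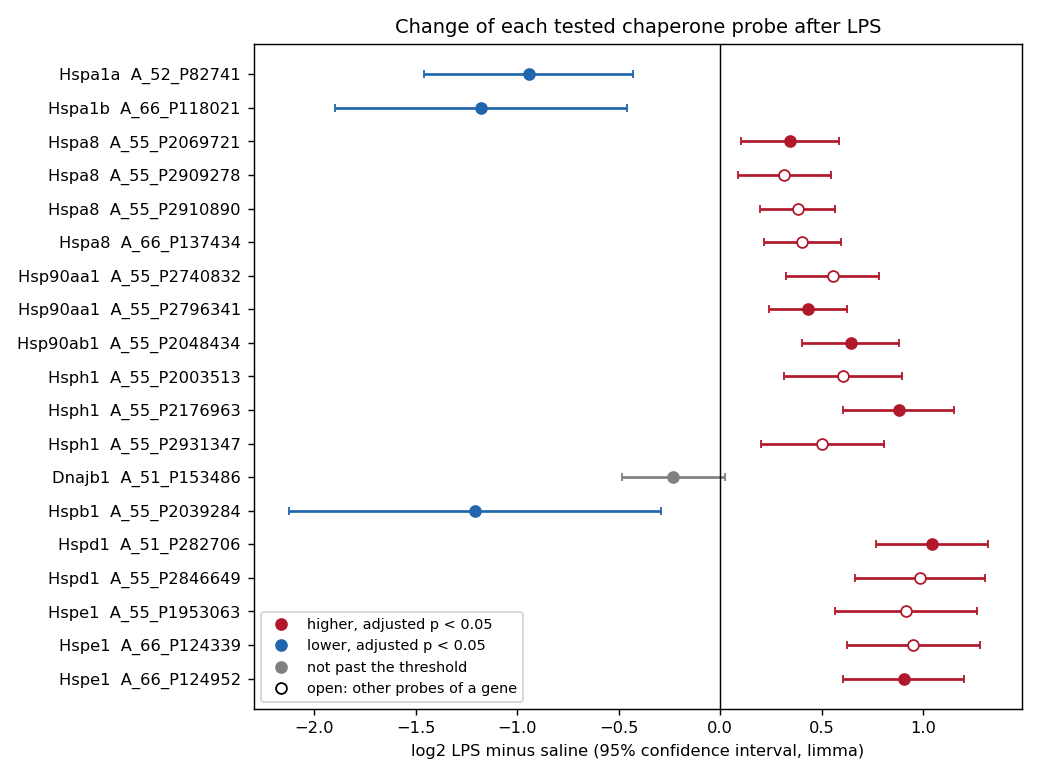
Change (log2 LPS minus saline) of each of the 19 tested chaperone probes, with 95% confidence intervals from limma (n = 4 arrays per group), red for higher, blue for lower and grey for not past the threshold, where filled points mark the probe that stands for its gene. Every probe of Hspa8, Hsp90aa1, Hsph1, Hspd1 and Hspe1 lies right of 0, and the single probes of Hspa1a, Hspa1b and Hspb1 lie left of it.

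The LPS arrays differed in how far the members stood from saline. Relative to the saline mean, the median of the 6 higher members was 0.91, 0.71, 0.50 and 0.79 in LPS replicates 1 to 4, and the median of the 3 lower members was -1.53, -1.48, -0.53 and -1.18. LPS replicate 1 was the farthest from saline and LPS replicate 3 the nearest in both sets.

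The genes whose profile over the 8 arrays was most like that of Hspa1b were, by root mean square difference of values centred on each gene's mean, D430004P15Rik (0.157 log2 units), 6030451C04Rik (0.186) and its own copy Hspa1a (0.191). Those most like Hspd1 were Gart, an enzyme of purine synthesis (0.030), and Uck2, a uridine-cytidine kinase (0.038), followed by a transcript that the array names only by position (0.039). D430004P15Rik changed by -1.10 ± 0.32 and 6030451C04Rik by -1.05 ± 0.32, and Gart changed by 1.05 ± 0.13 and Uck2 by 1.11 ± 0.12. The choice used the arrays of both groups, so it places these changes near those of Hspa1b and Hspd1 in advance.

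Most of the listed co-chaperones of HSP70 and HSP90 were higher as well, where 27.8% of all genes tested were higher and 21.5% lower. Of the 5 listed genes of heat shock factors and their regulator, 3 could be tested and 2 were higher, Hsf1 by 0.26 ± 0.06 (adjusted p = 0.0101) and Hsbp1, which binds and restrains HSF1, by 0.51 ± 0.13 (adjusted p = 0.0129). Among 11 co-chaperones and exchange factors of HSP70, 7 were higher and 4 did not pass, with a median of 0.33, led by Stip1, the adaptor between HSP70 and HSP90 (0.99 ± 0.10), Bag1 (0.80 ± 0.15) and Hspbp1 (0.64 ± 0.14), both exchange factors. Under quantile normalization only 3 of these 11 were higher and 2 were lower. Of 23 HSP90 co-chaperones 17 were higher and 3 lower (median 0.42). Those with the highest change were the immunophilin Fkbp4 (0.92 ± 0.12), Ptges3, which is the co-chaperone p23 (0.89 ± 0.12), and Ahsa1, the activator of the HSP90 ATPase (0.86 ± 0.12). The 3 that were lower were the folliculin partners Fnip2 (-1.09 ± 0.12) and Fnip1 (-0.47 ± 0.06) and the hamartin gene Tsc1 (-0.28 ± 0.07).

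The wider HSP70 family and the J-domain proteins held higher and lower genes. Over all genes tested 27.8% were higher and 21.5% lower. Of 11 other HSP70 and HSP110 genes 5 were higher and 2 lower (median 0.17), with Hyou1 of the endoplasmic reticulum at 0.86 ± 0.18, the mitochondrial Hspa9 at 0.62 ± 0.12 and the HSP110 relative Hspa4 at 0.62 ± 0.13, and with the distant relatives Hspa12a at -1.05 ± 0.21 and Hspa12b at -0.75 ± 0.11. Of 42 J-domain genes 39 could be tested, of which 19 were higher and 5 lower (median 0.20), from Dnajc9, a histone co-chaperone (0.85 ± 0.13), Dnajb11 of the endoplasmic reticulum (0.83 ± 0.10) and Dnajc15 of the mitochondrial inner membrane (0.81 ± 0.11) to Dnajc28 (-0.72 ± 0.15), the cytosolic Dnajb4 (-0.97 ± 0.08) and Dnajb13 (-1.19 ± 0.34). When the probes of a gene were averaged, 10 of the J-domain genes were higher. Of 9 other small heat shock proteins 2 were higher and 2 lower, near the shares of all genes tested. Hspb7 and Hspb2, known from heart and skeletal muscle, were lower, with changes of -2.10 ± 0.35 and -1.33 ± 0.27, and Hspb11, a protein of ciliary transport, was higher by 0.32 ± 0.08. Cryaa, the lens crystallin alpha A, had a fitted change of 4.43 ± 0.39 but was well above background on only 1 of 4 saline arrays, and Hspb7 on only 1 of 4 LPS arrays.

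Chaperones of other compartments and the cytosolic chaperonin followed the direction of Hspd1 and Hspe1, where 27.8% of all genes tested were higher. Of 17 genes of the CCT chaperonin and prefoldin, which fold actin and tubulin, 15 were higher and 2 did not pass (median 0.62), with Cct8 at 0.91 ± 0.12, Uxt at 0.88 ± 0.14 and Pfdn6 at 0.87 ± 0.10. Of 17 other mitochondrial chaperones and proteases 14 were higher and 1 lower (median 0.45). Clpb, the mitochondrial disaggregase, was at 0.88 ± 0.13, Dnajc19 of the import motor at 0.73 ± 0.13 and Grpel1, the exchange factor of mitochondrial HSP70, at 0.70 ± 0.13, while the unfoldase Clpx was at -0.21 ± 0.07. Of 18 chaperones and folding enzymes of the endoplasmic reticulum 15 were higher and 3 did not pass (median 0.83), led by Sdf2l1 (1.51 ± 0.13), Creld2 (1.16 ± 0.09) and Manf (1.03 ± 0.12). Some genes, such as Hspa9, Hyou1 and Dnajb11, belong to more than one of these lists.

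**Figure D4:**
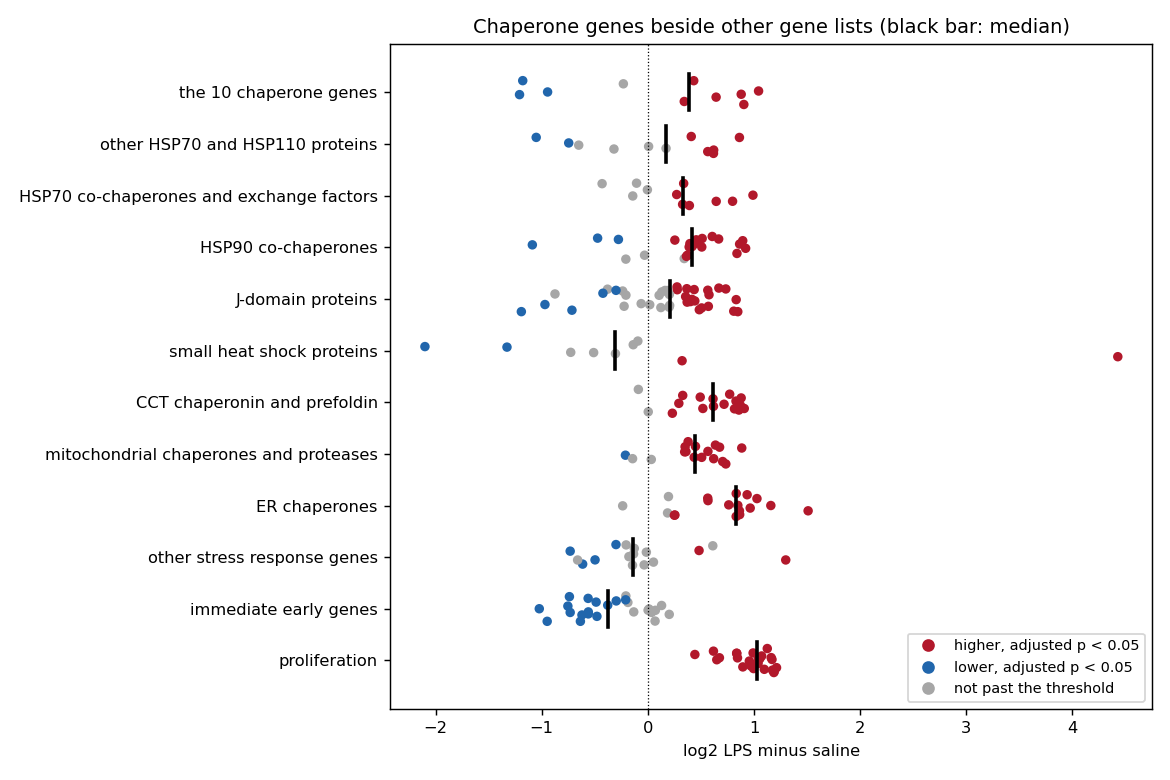
Change (log2 LPS minus saline) of each tested gene in 12 lists, with 1 point per gene, red for higher, blue for lower and grey for not past the threshold, and a black bar at the median of the list. The 10 chaperone genes spread between -1.21 and 1.04, all 25 proliferation genes lie right of 0, and the immediate early genes that passed lie left of it.

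Other stress response genes were mixed and many immediate early genes were lower, where 21.5% of all genes tested were lower. Of 16 other stress response genes 10 did not pass, 2 were higher, Chac1 (1.30 ± 0.16), which degrades glutathione, and Ubqln1 (0.48 ± 0.10), and 4 were lower, among them the transcription factors Atf3 (-0.73 ± 0.10) and Ddit3 (-0.61 ± 0.14) and the autophagy receptor Sqstm1 (-0.50 ± 0.10). Of 25 immediate early genes, which cells switch on within minutes of a stimulus, 15 were lower and 10 did not pass (median -0.38), with Egr2 at -1.02 ± 0.20, Egr3 at -0.95 ± 0.26 and Klf4 at -0.75 ± 0.10. With each array scaled to its median, which raises the median change of all genes to 0.24, 5 of the 25 were lower. The mean of these 25 genes relative to the saline mean was -0.35, -0.37, -0.32 and -0.39 in LPS replicates 1 to 4, with replicate 3 nearest to saline. The part of these genes in the levels of Hspa1a and Hspa1b was not tested.

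All 25 genes of the proliferation list were higher (median 1.03), where 27.8% of all genes tested were higher. The kinase Bub1 was at 1.21 ± 0.14, the replication helicase subunit Mcm5 at 1.19 ± 0.17 and the ribonucleotide reductase subunit Rrm1 at 1.19 ± 0.13. With array median signal as a covariate 22 of the 25 were higher. The list's mean relative to saline was 1.22, 1.11, 0.63 and 0.93 in LPS replicates 1 to 4 and was lowest in replicate 3, as were Hspd1 and Hspe1. The part of proliferation in the levels of the higher chaperones was not tested.

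Markers of the sorted cells were present, and those of some other cell types differed between the groups. Among all genes tested, 27.8% were higher and 21.5% lower. All 12 myeloid markers were well above background on every array. Of these 5 were higher, led by Ptprc (0.93 ± 0.10), Aif1 (0.92 ± 0.16) and Itgam, the CD11b gene itself (0.66 ± 0.10), and 2 were lower, P2ry12 (-1.55 ± 0.20) and Fcrls (-0.58 ± 0.13). Their summed level (the sum of their linear signals, each divided by the 75th percentile of its array) was 1933 to 2339 on the LPS arrays and 1801 to 2215 on the saline arrays. In such bulk samples fewer cells of a type and less RNA per cell cannot be told apart. Markers of astrocytes were lower in 11 of 12 genes (summed level 19.3 to 26.2 after LPS and 36.7 to 44.5 after saline), of oligodendrocyte lineage in 7 of 12 (12.1 to 13.5 and 14.5 to 15.8), and of erythroid cells in 4 of 5 tested (9.56 to 14.6 and 23.2 to 50.7). Of 12 endothelial and pericyte markers 9 were lower, among them Rgs5 (-1.54 ± 0.33), Vtn (-1.18 ± 0.13) and Pdgfrb (-1.16 ± 0.20), and 1 was higher. Their summed level, 39.9 to 57.5 after LPS and 34.1 to 46.2 after saline, overlapped between the groups. This sum includes the single higher gene Ly6c1 (2.05 ± 0.19). Of neuron markers 1 of 11 tested was higher and 2 were lower, both below the shares of all genes tested (8.72 to 15.1 and 12.7 to 17.8). Markers of monocytes were higher in 8 of 10 (52.1 to 90.7 after LPS and 16.5 to 20.6 after saline) and of lymphocytes in 4 of 9 tested with 1 lower (6.21 to 7.52 and 4.20 to 5.61). Of 13 neutrophil markers 4 were higher, near the 27.8% of all genes tested. These 4 were Lcn2 (4.86 ± 0.28), S100a8 (1.59 ± 0.29), S100a9 (1.38 ± 0.29) and Cxcr2 (1.10 ± 0.21), the last named although outside the rule for named genes and after its value was seen. The other 9 markers, most of them granule genes, did not pass, and the summed level was 227 to 379 after LPS and at most 175 after saline. Of 8 choroid plexus markers 0 passed in limma, also at an unadjusted p under 0.05, and their summed level of 67.8 to 338 on the LPS arrays and 134 to 368 on the saline arrays varied mostly within groups. Their mean relative to saline was -2.03, -0.93, 0.63 and -0.32 in LPS replicates 1 to 4, the order in which Hspb1 stood on these arrays, and in saline replicates 1 to 4 it was -0.36, -1.02, 0.75 and 0.63, with replicate 2 lowest and replicate 3 highest as for Hspb1. The median signal of the arrays stood in the same order within each group. It was 11.7, 13.1, 17.3 and 13.8 in LPS replicates 1 to 4, and 15.9, 15.5, 21.5 and 18.2 in saline replicates 1 to 4. The order of the arrays therefore cannot tell these markers and array brightness apart. The part of these other cells in the levels of Hspb1, Hspa1a and Hspa1b was not tested.

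Across 23 alternative settings no member changed direction. Hsp90ab1, Hsph1, Hspd1 and Hspe1 passed upward in all 23, with changes of 0.32 to 0.86 for Hsp90ab1, 0.66 to 1.09 for Hsph1, 0.71 to 1.26 for Hspd1 and 0.56 to 1.12 for Hspe1. Hspa1a, Hspa1b and Hsp90aa1 lost their call under 1 setting each, Hspa8 and Hspb1 under 9 each, and Dnajb1 passed downward under 5.

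**Figure D5:**
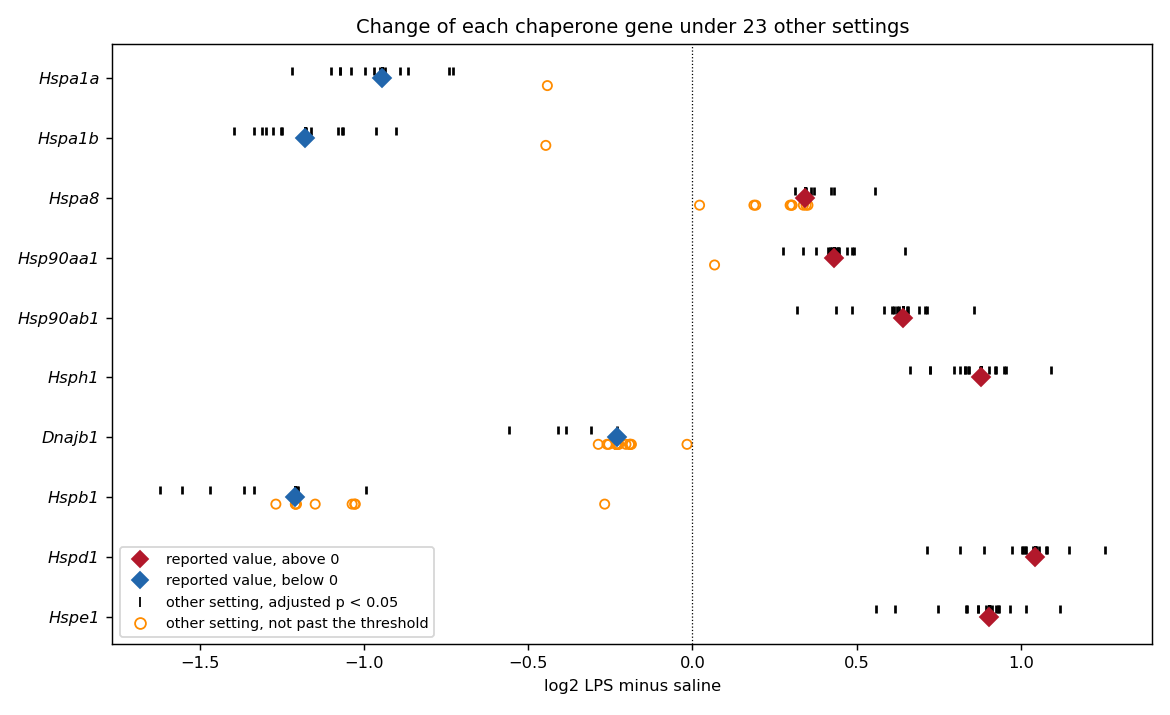
Change (log2 LPS minus saline) of each chaperone gene as reported (diamonds, red above 0 and blue below) and under 23 other settings (black ticks past the threshold, open orange circles not past it). The circles of Hspa1a (-0.44) and Hspa1b (-0.45) come from the fit with array median signal as a covariate, that of Hsp90aa1 (0.07) comes from quantile normalization, and no value crosses 0.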

How the data were processed

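Each tube gave 50 ng of total RNA for Cy3 labelling, per the labels. Agilent Feature Extraction 12.0.3.1 measured the spots, per the file headers and the submitters' processing notes. The deposited scanner files hold intensity values whose processed signal is background-subtracted and not scaled between arrays. A table of log2 values deposited by the authors equals the scanner values shifted per array and centred per probe (correlation at least 0.999 on each array), and was used as an alternative. Its column medians were -0.07 to 0.08, and no source used here says how it was made.

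Control and outlier spots were dropped, as were 6 probes lacking a usable spot, and no spot was saturated. The log2 processed signal, less the 75th percentile of its array, was fitted in R 4.3.3 with limma 3.58.1 (lmFit, eBayes), keeping probes well above background on 4 or more of 8 arrays, with Benjamini-Hochberg adjustment over all 22509 genes or 35494 probes and a threshold of 0.05. The brightest probe by mean stood for its gene. Well above background were 58.6% to 63.2% of probes on LPS arrays and 61.9% to 66.0% on saline arrays. All arrays shared 1 slide and 1 scan date. Probe coordinates are mm9 per the file headers, and promoters are RefSeq windows of GRCm38.p6. Named genes are all members, of each list up to 3 higher and 3 lower genes with the largest change, and the 3 genes most like Hspa1b and Hspd1. The members and lists were chosen with earlier results of these data known. The fit was tested on simulated data, and the outcome is not given here. Plots used Python 3.11.15 and matplotlib 3.10.9.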

Additional observations from a re-analysis of the deposited data

Results flagged for a closer look

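Hspa1b on saline replicate 3 lay far from the other saline arrays, at a scaled log2 signal of 2.99, where the nearest of the others was 1.95 and the gap took up 0.852 of the range of the group. Chance alone gives such a gap in about 1 in 20 groups of this size. The 10 genes were each measured in both groups, so 1 such gap among them is not unusual. The same array was the highest of the saline group for Hspa1a (5.20) and Hspb1 (4.96). Without it Hspa1b still passed, at -0.90.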

How the results depend on the processing

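Of 230 results of the 10 genes under 23 alternatives, 204 kept their direction and their side of the threshold, 21 lost the call, 5 gained it and 0 reversed. With the array median signal as a covariate 1 member was lower in place of 3, and this was Dnajb1 (-0.41, adjusted p = 0.026), with 1 member probe lower and 7475 of all genes changed. Hspa8 lost its upward call with this covariate (0.19, adjusted p = 0.213). Under quantile normalization 9 member probes were higher in place of 15. When one array was left out at a time, 8730 to 13262 of all genes changed, 5 to 6 members were higher and 2 to 3 lower, and 13 to 15 member probes were higher and 2 to 3 lower. Among these, Hspa8 lost its call without LPS replicates 1, 2 or 4 or saline replicates 2, 3 or 4 (0.30 to 0.35), and Hspb1 without LPS replicates 1, 2 or 4 or saline replicates 1, 3 or 4 (-1.27 to -1.03). Hspb1 also lost it with no filter (adjusted p = 0.0648) and with slide row as a block (adjusted p = 0.0539). Dnajb1 gained a call without LPS replicate 1 (-0.31). The labels give no replicate numbers that pair the tubes; the replicate block, which is the slide column, gave 13620 changed genes with 6 members higher and 4 lower. The median change of all genes was 0.02 as reported. It became 0.24 with scaling to each array's median and -0.13 with scaling over the probes detected on all arrays. Each member moved along with that median, so its distance from the median stayed the same. The alternative that averages probes does not apply to single probes. The causes of these changes were not tested.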
